A study of Schmidtea mediterranea with 6 samples.

Results

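The transcripts described here encode the lipoprotein receptors named *ldlr-1*, *ldlr-2* and *vldlr-1* in the planarian *Schmidtea mediterranea*. They were taken by name from the cloning list of the study, and they are 3 of the 28069 transcripts of the count table: *ldlr-1* (dd_Smed_v6_9829_0_1, 3048 bases), *ldlr-2* (dd_Smed_v6_5596_0_1, 2407 bases) and *vldlr-1* (dd_Smed_v6_1510_0_1, 2205 bases). Each is the only transcript of its assembly component in the table. All 3 were among the 14871 transcripts abundant enough to be compared.

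RNA came from whole, uninjured animals of the asexual clonal line CIW4. For the knockdown, *nkx2.2(RNAi)* planarians ate food mixed with dsRNA, which is double-stranded RNA, against *nkx2.2*, a homeodomain transcription factor, and the control planarians ate dsRNA of *egfp*, a jellyfish gene that planarians lack. Animals of both groups were given 1 µg dsRNA in 1 feeding and then starved for 7 days, with 3 biological replicates of 6 to 10 pooled animals each per the labels. The dsRNA was fed to whole animals, and no cell type was chosen for delivery or sorted. The study describes *nkx2.2* itself as enriched in the intestine.

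In vertebrates, receptors of the low-density lipoprotein (LDL) receptor family bind apolipoproteins on the surface of lipoprotein particles and carry the particles into the cell by endocytosis. The LDL receptor and the very low-density lipoprotein (VLDL) receptor share cysteine-rich ligand-binding repeats, a single membrane-spanning segment and a short tail inside the cell. Apolipoprotein B, the scaffold protein of these particles, is a ligand in this system and the only one treated as a ligand here. Planarians have a pair of transcripts for it, *apob-1* and *apob-2*. The planarian names rest on likeness to the human receptors, and the binding roles given here are known from vertebrates.

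The study listed 399 letters of each receptor clone, and the stretches printed here show which parts of such a receptor those letters cover. They were read from that list and not from a genome, and codon frames were found as the longest open frame. For *ldlr-1* the stretch runs from its ATG to the end of the listed letters, 98 codons, and the 13 cysteine codons (13.3% of the codons) are in capitals. Such a density of cysteine is typical of the ligand-binding repeats, but it was counted over the whole stretch from the ATG. No codon was assigned to a repeat.
ldlr-1: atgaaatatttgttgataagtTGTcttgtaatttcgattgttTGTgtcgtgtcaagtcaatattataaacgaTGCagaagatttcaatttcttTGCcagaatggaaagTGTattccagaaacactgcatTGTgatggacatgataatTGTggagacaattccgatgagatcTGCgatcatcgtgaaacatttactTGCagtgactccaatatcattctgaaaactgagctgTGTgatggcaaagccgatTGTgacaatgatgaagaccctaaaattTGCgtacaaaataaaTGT
For *ldlr-2* the 50 codons printed surround the most hydrophobic window of 20 codons, which is in capitals and had a mean Kyte-Doolittle hydropathy of 2.79, a value typical of a membrane-spanning segment.
ldlr-2: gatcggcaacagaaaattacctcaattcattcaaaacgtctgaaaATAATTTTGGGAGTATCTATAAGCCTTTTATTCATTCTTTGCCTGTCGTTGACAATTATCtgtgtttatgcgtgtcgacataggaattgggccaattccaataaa
For *vldlr-1* the listed letters open with a run of T, so the reverse complement was read, and the 64 codons printed end in a stop codon, in capitals.
vldlr-1: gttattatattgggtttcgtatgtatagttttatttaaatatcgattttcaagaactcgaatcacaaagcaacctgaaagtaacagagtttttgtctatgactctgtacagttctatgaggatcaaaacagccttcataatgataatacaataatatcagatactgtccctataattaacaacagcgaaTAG
The *ldlr-1* stretch therefore belongs to the start of the protein, the *ldlr-2* stretch to a membrane-spanning type of segment and the *vldlr-1* stretch to the end of the protein. Hydropathy was computed for *ldlr-2* alone, so whether the *vldlr-1* stretch also holds a membrane-spanning segment was not examined. Identity between the members was not computed.

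The libraries held 55.9 to 65.5 M counts in *nkx2.2(RNAi)* and 53.3 to 59.4 M counts in control. The targeted transcript *nkx2.2* lay between 8.65 and 9.09 CPM (counts scaled to the size of each library) in the *nkx2.2(RNAi)* libraries, against 168 to 220 CPM in the control libraries. One library stood apart. With *nkx2.2(RNAi)* replicate 1 left out, 31.4% of transcripts passed a false discovery rate (FDR) of 0.05, the threshold used throughout, against 10.6% with all 6 libraries, so receptor fold changes and ratios are given with and without it. Of the markers of cell types that whole animals hold, the neoblast transcripts *piwi-1* and *tgs-1*, the neuronal *ChAT*, the pharyngeal *laminin* and the epidermal progeny transcript *prog-1* did not pass the threshold (FDR at least 0.363 in edgeR's exact test), nor did *notum* and *wnt11-2*, which mark the ends of the body axis. The intestinal markers were mixed, with *ctsla* lower (log2 fold change −1.42), *slc22a6* higher (0.66) and *npc2* not past the threshold (0.04). The part of such shifts in the receptor levels was not tested.

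None of the 3 receptor transcripts passed the threshold in edgeR's exact test with all 6 libraries, where 10.6% of all transcripts did. At an unadjusted p below 0.05 the exact test also had 0 of the 3, beside 11.6% lower and 12.7% higher over all transcripts. The quasi-likelihood test (6.46% of all transcripts called), the likelihood ratio test (10.7%), DESeq2 (10.7%) and limma-voom (6.67%) called 0 of the 3 as well. *vldlr-1* had the lowest fold change and divided the knockdown replicates, *ldlr-1* lay slightly below control and *ldlr-2* slightly above it. In whole animals a lower level can stand for fewer cells that use a transcript or for less RNA in each, and these cannot be told apart.

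*ldlr-1*, one of the LDL receptor-type transcripts, had 23.4, 21.6 and 25.7 CPM in *nkx2.2(RNAi)* replicates 1, 2 and 3, against 25.6, 28.2 and 25.4 CPM in the control replicates. Replicates 1 and 2 of the knockdown lay below every control library, and replicate 3 lay within the control range. The means were 23.6 ± 2.02 CPM in *nkx2.2(RNAi)* and 26.4 ± 1.59 CPM in control (SD, n = 3 each). The log2 fold change was −0.16 with an SE of 0.09, and the FDR was 0.392 in the exact test and 0.311 in the quasi-likelihood test. The 95% interval of limma-voom ran from −0.38 to 0.05 on the log2 scale, which is 0.769 to 1.04 times the control level.

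*ldlr-2*, the other LDL receptor-type transcript, had 117, 128 and 131 CPM in *nkx2.2(RNAi)*, against 113, 117 and 117 CPM in control. Every knockdown library lay above every control library, but by little in replicate 1 (117.5 CPM, against a highest control value of 116.8 CPM). Over all transcripts compared, 27.7% had groups that did not overlap in this way, so the separation of *ldlr-2* was a common one. The means were 125 ± 6.86 CPM in *nkx2.2(RNAi)* and 115 ± 2.27 CPM in control (SD, n = 3 each). On the log2 scale the fold change was 0.12 with an SE of 0.05, and the FDR was 0.455 in the exact test and 0.354 in the quasi-likelihood test. The 95% interval ran from −0.05 to 0.29, or 0.963 to 1.22 times the control level.

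*vldlr-1*, the VLDL receptor-type transcript, had 173, 93.5 and 90.7 CPM in *nkx2.2(RNAi)* replicates 1, 2 and 3, against 177, 144 and 147 CPM in the control replicates. Knockdown replicates 2 and 3 lay well below all control libraries, whereas replicate 1 lay among them. The means were 119 ± 46.5 CPM in *nkx2.2(RNAi)* and 156 ± 17.8 CPM in control (SD, n = 3 each), so the SD of the knockdown group exceeded the difference between the means. The log2 fold change was −0.39 with an SE of 0.32, and the FDR was 0.290 in the exact test and 0.309 in the quasi-likelihood test. The 95% interval ran from −0.94 to 0.03, or 0.519 to 1.02 times the control level, a range which included no change and was centred on the limma-voom estimate of −0.46.

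**Figure D1:**
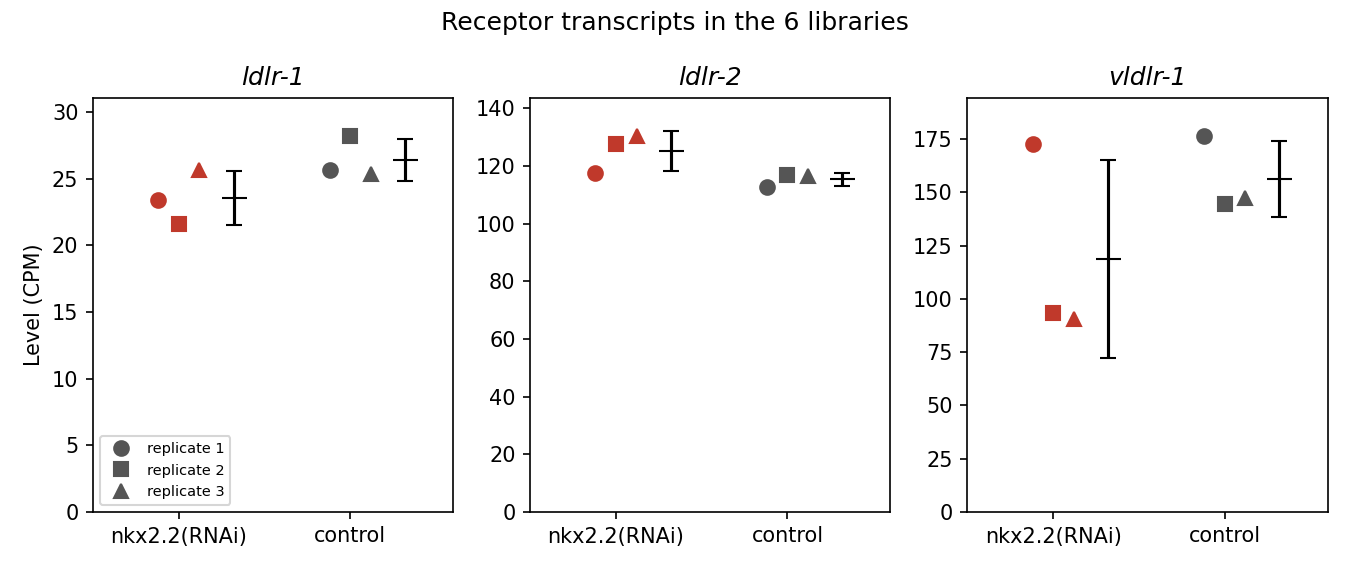
Level (CPM, linear axis from 0) of each receptor transcript in the 3 nkx2.2(RNAi) and the 3 control libraries, with a marker shape for each replicate number and the mean ± SD as a bar to the right of the points. The nkx2.2(RNAi) libraries of vldlr-1 sit at 173, 93.5 and 90.7 CPM, and those of ldlr-1 and ldlr-2 stay close to their controls.

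Leaving out *nkx2.2(RNAi)* replicate 1 changed the call of *vldlr-1* and of neither other receptor. The log2 fold change of *vldlr-1* was then −0.76 with an FDR of 1.46e-08 in the exact test and 0.00118 in the quasi-likelihood test, the second of which was added after seeing the data. With that library gone 31.4% of all transcripts were called by the exact test, 17.1% as lower, so *vldlr-1* joined a large group. Without replicate 1 of both groups, likewise added after seeing the data, the log2 fold change was −0.69 and the FDR 3.15e-04 in the quasi-likelihood test, where 19.3% of transcripts were called. Leaving out any other single library gave *vldlr-1* between −0.48 and −0.26 with an FDR of at least 0.290 in the exact test. The share of all transcripts called was then 5.25% and 5.75% without *nkx2.2(RNAi)* replicates 2 and 3, and 5.39%, 10.1% and 6.64% without control replicates 1, 2 and 3.

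*ldlr-1* and *ldlr-2* stayed outside the threshold whichever library was left out. *ldlr-1* ranged from −0.26 to −0.13, with an exact test FDR of 0.323 without *nkx2.2(RNAi)* replicate 1. *ldlr-2* ranged from 0.06 to 0.16, with an exact test FDR of 0.196 without that library.

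**Figure D2:**
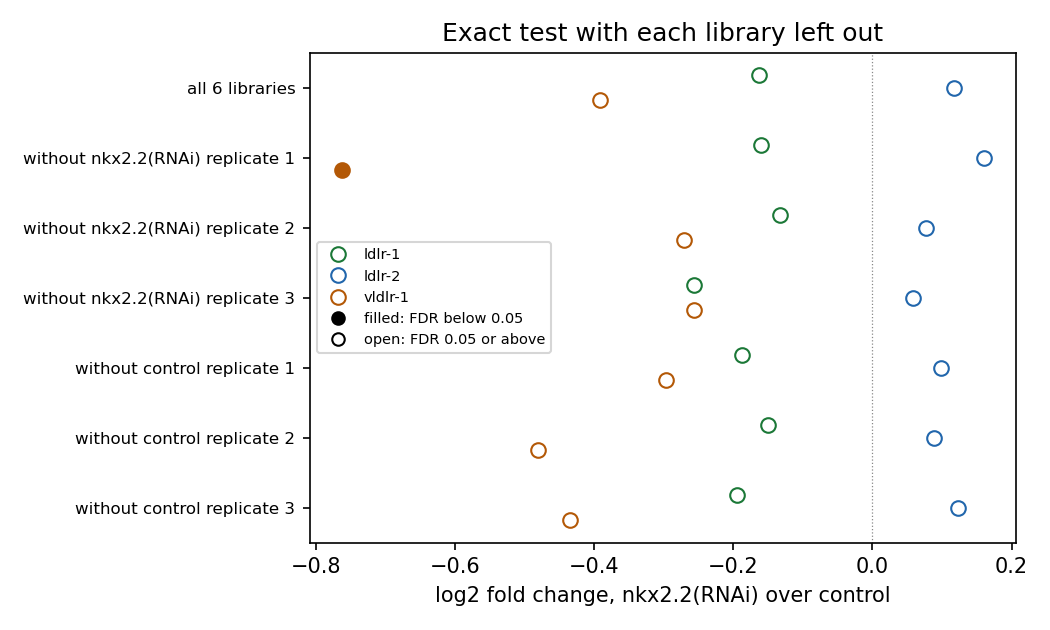
The log2 fold change (nkx2.2(RNAi) over control, x axis) of the 3 receptors in the exact test with all 6 libraries and with each library left out in turn (rows), filled where the FDR was below 0.05. The only filled point is vldlr-1 without nkx2.2(RNAi) replicate 1, at −0.76.

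The distance between knockdown replicate 1 and the other knockdown replicates also differed among the receptors. On the log2 scale replicate 1 minus the mean of replicates 2 and 3 was 0.90 for *vldlr-1*, −0.01 for *ldlr-1* and −0.14 for *ldlr-2*. Among all 14871 transcripts 578 (3.89%) had a distance of at least the size and direction seen for *vldlr-1*. Control replicate 1 was the highest control library for *vldlr-1* as well, by 0.28 on the same scale. With 4963 counts or more behind every *vldlr-1* value, counting error was at most 1.42% of a value if each count is independent, and over all members at most 2.95%.

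To see whether these values were usual for transcripts of their abundance, each receptor was set beside the 200 compared transcripts nearest to it in control level, as a description with no test. *ldlr-1* lay between neighbours of 25.7 and 29.2 CPM, whose median log2 fold change was −0.0010 with quartiles of −0.16 and 0.14. The value of *ldlr-1* lay at the lower quartile, with 49 of the 200 neighbours below it. *ldlr-2* lay close to the middle of its neighbours (109 to 124 CPM, median 0.09), with 117 of 200 below it.

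*vldlr-1* lay near the edge of its neighbours. Those transcripts (144 to 184 CPM) had a median log2 fold change of 0.11 with quartiles of −0.01 and 0.23, and 6 of the 200 had a lower fold change than *vldlr-1*. Its spread was wider still, since the SD of its log2 CPM in *nkx2.2(RNAi)* was 0.52, above that of all 200 neighbours, whose median was 0.11. In control its SD was 0.16, above 171 of the 200, with a median of 0.08. Of its neighbours 8 were called lower and 23 higher, 15.5% in all, against 12.5% around *ldlr-1* and 16.5% around *ldlr-2*.

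The within-group spread of *ldlr-1* was ordinary, and that of *ldlr-2* was narrow in control. The SD of *ldlr-1* was 0.12 in *nkx2.2(RNAi)* and 0.08 in control, where the neighbours had medians of 0.12 and 0.09. The SD of *ldlr-2* was 0.08 in *nkx2.2(RNAi)* and 0.03 in control, against neighbour medians of 0.10 and 0.08, and only 19 of the 200 neighbours varied less than *ldlr-2* among the control libraries. The fold changes of abundant transcripts leaned upwards, from a median of −0.17 in the least abundant of 10 equal groups to 0.14 in the most abundant. With a correction for that trend, the log2 fold change of *ldlr-2* was 0.01, that of *ldlr-1* −0.18 and that of *vldlr-1* −0.48.

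**Figure D3:**
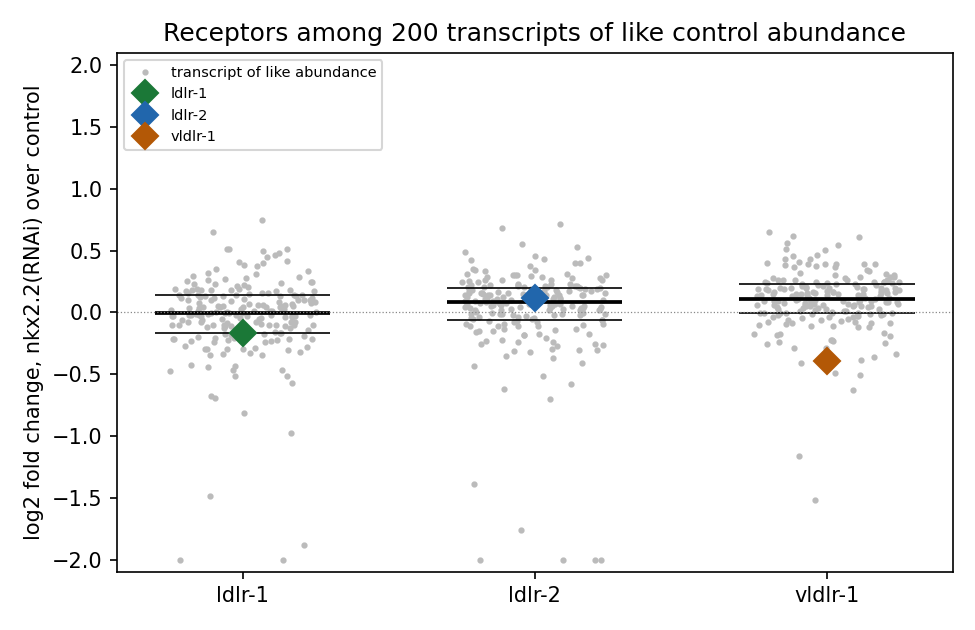
The log2 fold change (y axis, nkx2.2(RNAi) over control) of each receptor (diamond) among the 200 transcripts of nearest control level (grey points, with black lines at the quartiles and the median); 2 points around ldlr-1 and 4 around ldlr-2 lie beyond a log2 change of 2 and are drawn at that edge. vldlr-1 lies below all but 6 of its neighbours, ldlr-1 at its lower quartile and ldlr-2 near its median.

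Between transcripts, levels were compared only per length, as CPM per kilobase of transcript. Per kilobase, *ldlr-1* was the least abundant receptor in all 6 libraries, with 7.74 ± 0.66 CPM per kilobase in *nkx2.2(RNAi)* and 8.67 ± 0.52 in control (SD, n = 3 each). *ldlr-2* had 52.0 ± 2.85 in *nkx2.2(RNAi)* and 47.9 ± 0.94 in control. *vldlr-1* had 53.9 ± 21.1 in *nkx2.2(RNAi)* and 70.8 ± 8.08 in control.

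In control the order was therefore *vldlr-1*, *ldlr-2*, *ldlr-1*, and no library of one receptor overlapped those of the next. In *nkx2.2(RNAi)* the order of the leading receptors was not the same in each library. *vldlr-1* exceeded *ldlr-2* in replicate 1 (78.3 against 48.8 CPM per kilobase) and lay under it in replicate 2 (42.4 against 53.01) and replicate 3 (41.1 against 54.2), so the ranges of these neighbours overlapped. Of all transcripts compared, 89.3% had a lower control level per kilobase than *vldlr-1*, 83.9% a lower one than *ldlr-2* and 40.9% a lower one than *ldlr-1*.

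**Figure D4:**
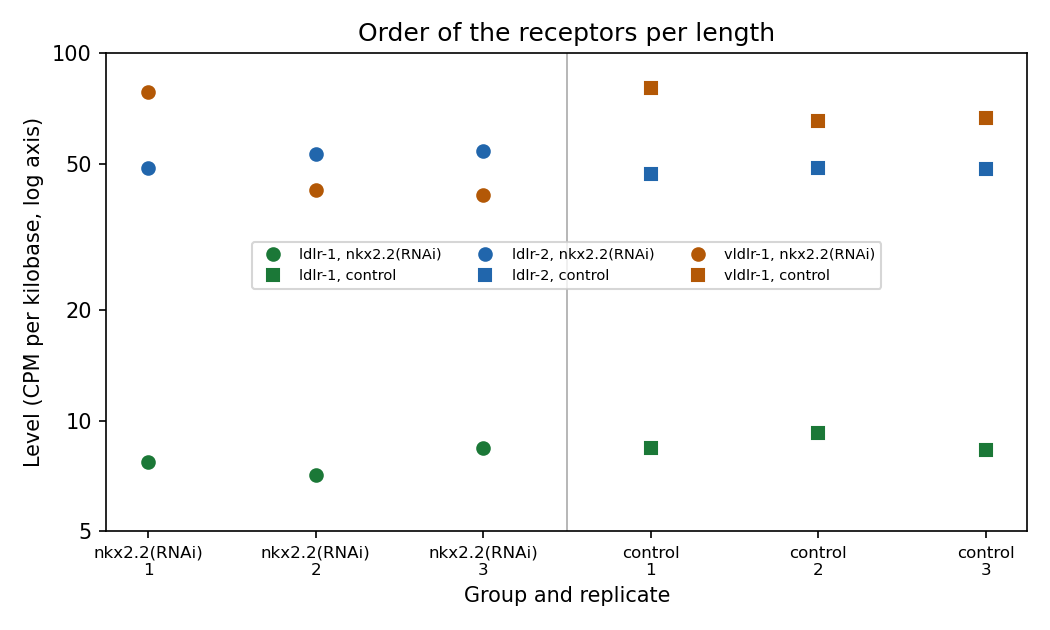
Level per length (CPM per kilobase, log axis) of the 3 receptors in each library, with nkx2.2(RNAi) replicates as circles on the left and control replicates as squares on the right. vldlr-1 is above ldlr-2 in all control libraries and in nkx2.2(RNAi) replicate 1 and below it in nkx2.2(RNAi) replicates 2 and 3, while ldlr-1 is lowest everywhere.

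Ratios of receptors within a library do not depend on its depth or scaling, and both ratios that contain *vldlr-1* showed the same division. *vldlr-1* over *ldlr-2*, per kilobase, was 1.6, 0.80 and 0.76 in *nkx2.2(RNAi)* replicates 1, 2 and 3, against 1.71, 1.35 and 1.38 in the control replicates. The knockdown values of replicates 2 and 3 lay below all controls, and that of replicate 1 within their range. The log2 ratio differed by −0.57 with an SE of 0.36 (exact permutation test, two-sided, p = 0.3, adjusted p = 0.45 over the 3 ratios).

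*vldlr-1* over *ldlr-1* was 10.2, 5.97 and 4.89 in *nkx2.2(RNAi)*, against 9.52, 7.07 and 8.02 in control. Replicate 1 of the knockdown had the highest ratio of all 6 libraries and its other replicates had the lowest. The log2 ratio differed by −0.29 with an SE of 0.34 (exact permutation test, p = 0.5, adjusted p = 0.5).

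*ldlr-1* over *ldlr-2* was the ratio whose groups did not overlap, and how often other pairs of transcripts separate so was not computed. The ratios carry no correction for the abundance trend, with which the log2 fold change was −0.18 for *ldlr-1* and 0.01 for *ldlr-2*. It was 0.158, 0.134 and 0.155 in *nkx2.2(RNAi)*, against 0.180, 0.191 and 0.172 in control. The log2 ratio differed by −0.28 with an SE of 0.09, and the exact permutation test gave p = 0.1 (adjusted p = 0.3), where 0.1 is the smallest p that 3 libraries against 3 allow. This test could therefore not pass a threshold of 0.05 for any ratio. Without *nkx2.2(RNAi)* replicate 1 the differences were −0.92 for *vldlr-1* over *ldlr-2*, −0.59 for *vldlr-1* over *ldlr-1* and −0.33 for *ldlr-1* over *ldlr-2*. The share of *vldlr-1* in the summed receptor level was 58.1%, 41.4% and 39.6% in *nkx2.2(RNAi)*, against 59.2%, 53.1% and 54.0% in control.

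On the ligand side, both *apob* transcripts were lower past the threshold with all 6 libraries, which none of the receptors passed in the exact or quasi-likelihood test. The study found the *apob* transcripts by their fall in its *nkx2.2(RNAi)* libraries, whereas the receptors were taken by name. The *apob* fall is therefore no separate result here. *apob-1* had 6.21, 5.18 and 4.33 CPM in *nkx2.2(RNAi)*, against 702, 709 and 667 CPM in control, a log2 fold change of −7.04 (SE 0.15, FDR 4.87e-08 in the quasi-likelihood test). *apob-2* had 299, 244 and 427 CPM in *nkx2.2(RNAi)*, against 561, 1157 and 631 CPM in control, a log2 fold change of −1.28 (SE 0.40, FDR 3.13e-04 in the exact test and 0.0309 in the quasi-likelihood test).

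The summed receptor level changed far less than the summed level of the *apob* transcripts, which the study had found by their fall. The 3 receptors together had 135, 103 and 104 CPM per kilobase in *nkx2.2(RNAi)*, against 135, 123 and 124 in control. The *apob* transcripts together had 17.6, 14.3 and 24.7 CPM per kilobase in *nkx2.2(RNAi)*, against 92.7, 127 and 93.7 in control. The summed *apob* level over the summed receptor level was 0.130, 0.140 and 0.238 in *nkx2.2(RNAi)*, against 0.685, 1.03 and 0.758 in control. The 2 groups did not overlap, as held for 27.7% of single transcripts. By itself *apob-1* had at least 57.7 CPM per kilobase in control and at most 0.54 in *nkx2.2(RNAi)*. *nkx2.2(RNAi)* replicate 1, which stood apart for *vldlr-1*, had the lowest ratio of all, close to that of replicate 2. Its receptor sum was higher (135 against 103), while its *apob* sum was not lower (17.6 against 14.3).

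**Figure D5:**
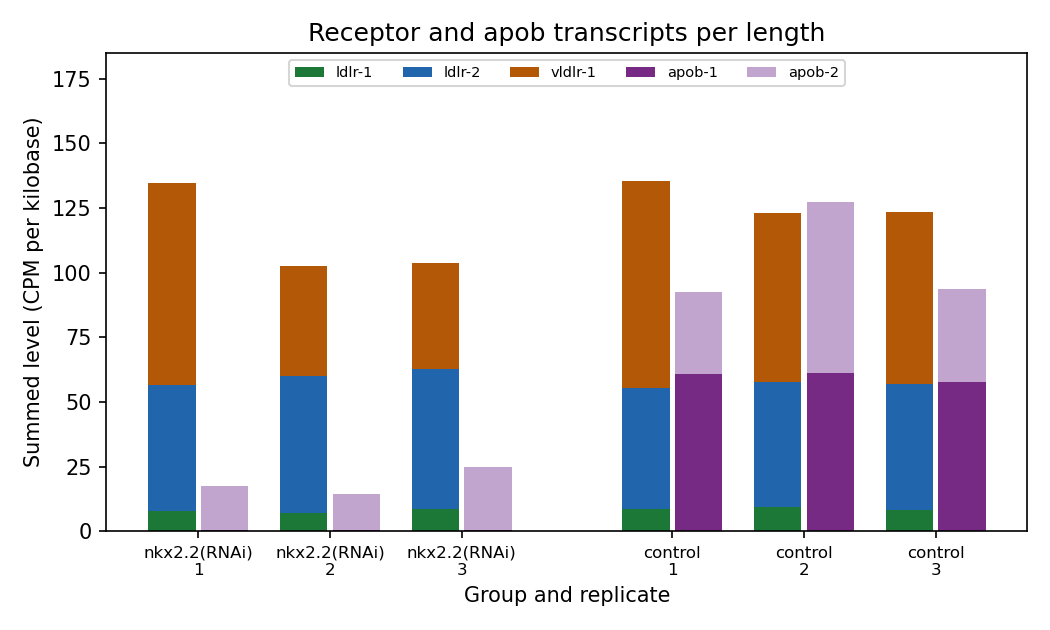
Summed level per length (CPM per kilobase, linear axis from 0) of the 3 receptors (left bar) and of the apob transcripts (right bar) in each library. The receptor bars stay between 103 and 135 in all libraries, whereas the apob bars reach 14.3 to 24.7 in nkx2.2(RNAi) and 92.7 to 127 in control.

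Other transcripts of lipoprotein uptake were taken from the gene ontology annotation of the study, as those assigned to cholesterol import, to receptor-mediated endocytosis in cholesterol transport or to intestinal cholesterol absorption. This gave 12 transcripts, of which *ldlr-1* is one, while *ldlr-2* and *vldlr-1* were not annotated to these terms. All 12 were compared, and 2 were lower past the threshold, 0 were higher and 10 did not pass, with a median log2 fold change of −0.13. Over all transcripts 5.43% were lower and 5.18% were higher, with a median of 0.02. At an unadjusted p below 0.05 in the exact test, 3 of the list were lower and 1 was higher, beside 11.6% lower and 12.7% higher over all transcripts. The quasi-likelihood FDR also called 2 of the list lower and 0 higher, beside 3.42% lower and 3.04% higher over all transcripts.

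One lower transcript of the list has SIDT2, a multispan membrane protein of lysosomes in mammals, as its best human match (dd_Smed_v6_8407_0_1). It had 29.8, 21.8 and 24.1 CPM in *nkx2.2(RNAi)*, against 42.0, 35.1 and 39.1 CPM in control, with a log2 fold change of −0.62 (SE 0.15, FDR 2.89e-04 in the exact test and 0.0195 in the quasi-likelihood test). Without *nkx2.2(RNAi)* replicate 1, 4 transcripts of the list were lower and 1 was higher in the exact test, which then called 17.1% of all transcripts lower and 14.3% higher. The added ones were dd_Smed_v6_6355_0_1 (−0.44) and dd_Smed_v6_8231_0_1 (−0.42), both lower, and dd_Smed_v6_3970_0_1 (0.37), higher, with no gene name in the tables used.

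Of the uptake list 10 members, *ldlr-1* included, did not pass the threshold with all 6 libraries. With *ldlr-1* set aside, their log2 fold changes ran from −0.33 (dd_Smed_v6_6355_0_1, FDR 0.0954 in the exact test) to 0.54 for a transcript best matched by caveolin-3, a coat protein of caveolae (dd_Smed_v6_10578_0_1, FDR 0.273). Between them lay dd_Smed_v6_8231_0_1 (−0.18), dd_Smed_v6_6535_0_1 (−0.15), dd_Smed_v6_6585_0_1 (−0.11), dd_Smed_v6_6063_0_1 (0.00), dd_Smed_v6_589_0_1 (0.02), dd_Smed_v6_4651_0_1 (0.22) and dd_Smed_v6_3970_0_1 (0.29). More distant relatives of the receptors stayed close to control. A transcript best matched by LRP5, a Wnt co-receptor in vertebrates (dd_Smed_v6_10112_0_1), had a log2 fold change of −0.04 (FDR 0.892 in the exact test), and one best matched by LRP11 (dd_Smed_v6_10934_0_1) had −0.0050 (FDR 0.990).

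For each receptor, the compared transcripts of at least 10 CPM were ordered by how closely their centred log2 CPM followed the receptor over the 6 libraries, measured as the root mean square difference. Nearest to *vldlr-1* were dd_Smed_v6_7687_0_1 (0.04 on the log2 scale), dd_Smed_v6_8558_0_1 (0.06) and dd_Smed_v6_2850_0_1 (0.06), of 9538 candidates. These had log2 fold changes of −0.46, −0.48 and −0.29.

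Nearest to *ldlr-1* were dd_Smed_v6_1885_0_1 (0.03), dd_Smed_v6_6991_0_1 (0.03) and dd_Smed_v6_10216_0_1 (0.04), the last best matched by the zinc finger protein SNAI2. Nearest to *ldlr-2* were dd_Smed_v6_3304_0_1 (0.01), dd_Smed_v6_4948_0_1 (0.02) and dd_Smed_v6_2861_0_1 (0.02). The receptors followed each other less closely than this, by 0.17 between *ldlr-1* and *ldlr-2*, 0.37 between *ldlr-1* and *vldlr-1* and 0.46 between *ldlr-2* and *vldlr-1*. These distances describe 6 libraries and were not tested.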

How the data were processed

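RNA-Seq was performed on poly(A) RNA of whole planarians, 3 *nkx2.2(RNAi)* and 3 control libraries read as pairs of 150 bases, and groups were taken from the sample titles. The authors aligned reads to the dd_Smed_v6 transcript assembly with Bowtie2 (2.3.1 per the submitters' processing notes) and, per the methods, summed them per transcript with featureCounts (Subread 1.6.3). The table as deposited gives raw whole-number counts. Whether they count fragments, single reads or alignments was not settled, so counting errors treat each count as independent. Per the methods, reads matching several transcripts were counted at each. One last row without a name, which featureCounts does not write, held 0 counts and was left out. The authors' comparison (fold changes, average levels and FDR values) is in another deposited table, which was not used.

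The counts were analysed in edgeR 4.0.16 (R 4.3.3) after the study's methods. The filter required more than 1 CPM in 3 or more libraries, which 14871 of 28069 transcripts met; library sizes were recomputed, TMM factors applied, and the groups compared with the two-sided exact test without covariates, with Benjamini-Hochberg adjustment over all transcripts and a threshold of 0.05. The FDR of edgeR's quasi-likelihood test stands beside it, and the steps were tested on simulated data. CPM are TMM-scaled, the SE comes from the log2 CPM within each group, and 95% intervals come from limma-voom (limma 3.58.1). Ratios were tested by exact permutation. DESeq2 1.42.0, other factors and filters, a trend correction, a replicate block and leaving out each library were the alternatives. The replicates are labelled biological, and 3 per group limit every test.

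The receptors, the lists and the rules for naming transcripts were chosen with earlier results of these data known. Named transcripts were the receptors, *nkx2.2*, the *apob* transcripts, the markers, every transcript of the uptake list, 2 matches to receptor relatives, the 3 transcripts most like each receptor, and, of the other transcripts of the lipid lists past the threshold at a mean of at least 10 CPM, the 5 lowest and 5 highest fold changes. One transcript of the uptake list is counted but not reported here. Receptor sequences were read from the study's clone list, which shows 399 letters of each.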

Additional observations from a re-analysis of the deposited data

How the results depend on the processing

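Of 81 fold changes and ratios of the receptors under other settings, 77 kept their direction and their side of the threshold, 4 moved past it and 0 reversed. The ratios among them could keep or reverse their direction but could not move past the threshold, since the smallest p of their permutation test is 0.1. Of 95 counts of calls, 67 stayed within 1.5 times and 28 did not. The median of the transcripts around *ldlr-1* was 0.04 with 50 neighbours, against −0.0010 with 200. The 4 that moved past the threshold were all of *vldlr-1*: without *nkx2.2(RNAi)* replicate 1 (−0.76 in the exact and in the quasi-likelihood test), without replicate 1 of both groups (−0.69) and with the replicate block (−0.45). Whether the replicate numbers pair the libraries was not settled. Deviations from the group means of same-numbered libraries correlated by 0.41, 0.00 and 0.17, and the 0.41 of replicate 1 was the highest of all pairings. Knockdown replicates 2 and 3 correlated best with control replicates 3 and 2. With 3 libraries per group these values cannot decide it. The block is therefore given only here (FDR 0.0496 for *vldlr-1* in the quasi-likelihood test, 1872 transcripts called). It changed no call of the other receptors. With single libraries left out, *vldlr-1* ranged from −0.76 to −0.26, and the log2 ratios from −0.59 to −0.06 (*vldlr-1* over *ldlr-1*), from −0.92 to −0.38 (*vldlr-1* over *ldlr-2*) and from −0.33 to −0.21 (*ldlr-1* over *ldlr-2*). The count of transcripts past the threshold was 1579, and 961 in the quasi-likelihood test, 992 in limma-voom, 1017 with the trend correction, 2758 without replicate 1 of both groups, 4229 in the quasi-likelihood test without *nkx2.2(RNAi)* replicate 1, and 777 to 4605 with single libraries left out. With the trend correction 61.6% of the calls were lower, against 51.2% without it. The uptake list held 2 to 4 lower and 0 to 1 higher calls with single libraries left out, and 4 lower ones without replicate 1 of both groups. Over all transcripts the share called in either direction was 5.25% to 31.4% with single libraries left out. It was 19.3% without replicate 1 of both groups. The lipid list held 27 to 68 lower and 5 to 41 higher calls with single libraries left out. Its lower calls were 67 in the quasi-likelihood test without *nkx2.2(RNAi)* replicate 1, where 28.8% of all transcripts were called in either direction. They were 60 without replicate 1 of both groups (19.3% of all). Its 19 higher calls in the exact test are given next with the share of all transcripts called in either direction, which was 10.6% there. They were 10 in the quasi-likelihood test (6.46%), 9 in limma-voom (6.67%) and 12 on library size alone (8.7%). With the trend correction they were 7 (6.84%), and in the quasi-likelihood test without *nkx2.2(RNAi)* replicate 1 they were 40 (28.8%). The cause of these moves was not tested. Each receptor value rested on at least 1149 counts.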

Other observations

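The study's gene ontology lists for lipid transport, triglyceride and cholesterol held 315 transcripts, the 12 of the uptake list included, of which 294 were compared. In the exact test 39 (13.3%) were lower, 19 (6.46%) were higher and 236 did not pass the threshold, beside 5.43% lower and 5.18% higher over all transcripts. The median log2 fold change was −0.03, beside 0.02 over all. By the quasi-likelihood test 34 (11.6%) were lower and 10 (3.40%) were higher, beside 3.42% lower and 3.04% higher over all transcripts. Leaving out single libraries moved the higher count to 41 (*nkx2.2(RNAi)* replicate 1), 5 (replicate 2) and 6 (replicate 3), and to 6 and 10 without control replicates 1 and 3, and it moved the lower count to 68 without *nkx2.2(RNAi)* replicate 1. Over all transcripts the share called in either direction was 31.4%, 5.25% and 5.75% without *nkx2.2(RNAi)* replicates 1, 2 and 3, and 5.39% and 6.64% without control replicates 1 and 3.

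The lowest and highest of these lists are named only among transcripts past the exact test threshold with a mean of at least 10 CPM. The uptake list and the *apob* transcripts were set aside. The highest log2 fold change of the lists, 1.91, lay outside these limits. The lowest within them was best matched by human pantothenate kinase 1, which starts coenzyme A synthesis (dd_Smed_v6_3794_0_1, 0.95, 0.57 and 0.95 CPM in *nkx2.2(RNAi)*, against 34.9, 32.9 and 36.1 CPM in control). Other low ones were matched by the protease CELA1 (dd_Smed_v6_8746_0_1, log2 fold change −5.16), the transporter ABCG2 (dd_Smed_v6_8560_0_1, −3.94, and dd_Smed_v6_4081_0_1, −3.06) and the dicarboxylate transporter SLC13A3 (dd_Smed_v6_1171_0_1, −3.33). All 5 had an FDR below 0.001 in both edgeR tests. The highest were a match to sterol O-acyltransferase 1, which esterifies cholesterol for storage (dd_Smed_v6_2567_0_1, 118, 105 and 103 CPM in *nkx2.2(RNAi)*, against 53.8, 50.8 and 59.2 CPM in control), and matches to glycerol kinase (dd_Smed_v6_10169_0_1, 0.69), brain fatty acid-binding protein (dd_Smed_v6_271_0_1, 0.58), acetyl-CoA carboxylase 1 (dd_Smed_v6_7598_0_1, 0.57) and epididymal secretory protein E1, a sterol carrier of lysosomes (dd_Smed_v6_704_0_1, 0.49). The last 2 did not pass in the quasi-likelihood test (FDR 0.0969 and 0.0966).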
